A study of Mus musculus with 9 samples.

Results

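The genes described here drive and mark the cell division cycle: cyclins and cyclin-dependent kinases (CDKs) with their inhibitors, the factors that license and copy DNA, and the kinases, motors and checkpoint proteins of mitosis. The list names 58 genes, and a gene was measured by every probeset whose annotation gives it as the only gene symbol. This found 131 probesets for 57 genes, of 45037 probesets and 18193 genes in all. Ccnb1 (cyclin B1) was not used, because its 1 probeset also names another gene. Of the 57 genes, 14 had 1 probeset and 43 had several, up to 7 for Ccnd2. The brightest probeset, by its mean over the 9 arrays, stood for the gene, and other probesets are given where their call differs.

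Expression was measured on Affymetrix whole-genome mouse arrays in 3 lines of mouse fibroblasts. The v-Src cells are BALB/c-3T3 cells that stably carry v-Src, the oncogenic tyrosine kinase of a chicken retrovirus, on the plasmid pMvSrc. The STAT3-C cells are BALB/c-3T3 cells that stably carry STAT3-C, a constitutively active form of the transcription factor STAT3, on the plasmid pRc/CMV-STAT3C. The control cells are unmodified BALB/c-3T3 cells. All were harvested while growing exponentially in DMEM with bovine calf serum. Each line has 3 arrays, numbered 1, 5 and 6 for v-Src cells and 1, 2 and 3 for STAT3-C and control cells. An array holds RNA pooled from dishes of 1 passage of 1 stable line, so the spread behind each p-value is that between passages of a line, not between clones.

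Progress through the cycle is driven by cyclins bound to CDKs. In G1 phase, cyclin D with CDK4 or CDK6, and then cyclin E with CDK2, phosphorylate the retinoblastoma (pocket) proteins, which releases E2F factors to transcribe the genes of DNA replication. Origins are licensed when the ORC complex, CDC6 and CDT1 load the ring-shaped helicase MCM2 to MCM7, and the helicase is switched on in S phase by CDC45 and the GINS complex. The genes of mitosis are transcribed later, many of them through promoter elements named CHR and CCAAT. In RNA from a whole culture, fewer cells in a phase and less RNA per cell cannot be told apart.

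All values are on the log2 scale after Robust Multichip Average (RMA) normalization by the authors. Array medians lay between 6.27 and 6.39 and lower quartiles between 5.07 and 5.16. Every gene of the list had a mean above that quartile in each line, with means between 5.97 and 12.46 in v-Src, 5.70 and 12.63 in STAT3-C and 5.86 and 12.70 in control cells. The fibroblast genes Vim (13.43, 13.17 and 13.41 in v-Src, STAT3-C and control cells) and Col1a2 (13.01, 12.72 and 13.33) were high in every line, while Thy1 was 5.68, 5.67 and 10.86. Of 10 fibroblast markers, 6 were lower and 1 higher in v-Src cells, and 7 lower and 1 higher in STAT3-C cells, against control. Their mean lay between 9.92 and 10.39 in v-Src, 10.30 and 10.41 in STAT3-C, and 11.89 and 12.08 in control arrays. Markers of other cell types were mixed. Ptprc (4.10, 4.36 and 3.99) and Itgam (4.34, 4.54 and 4.44) of leukocytes, Cdh1 (4.48, 4.65 and 4.33) of epithelium, and Pecam1 (4.59, 4.84 and 4.58) and Tek (4.60, 4.68 and 4.52) of endothelium were below the lower quartile of the arrays. Above the array medians were Csf1r (7.81, 7.31 and 7.49), Cd3e (7.51, 7.37 and 7.33) and Cd68 of leukocytes, Epcam (9.71, 9.05 and 9.37) and Krt8 (6.67, 6.49 and 6.43) of epithelium, and Kdr (7.07, 6.89 and 6.89) of endothelium. Of 5 leukocyte markers 1, Cd68 (6.53, 7.70 and 6.57), was higher with STAT3-C and lower in v-Src against STAT3-C, and their mean lay between 5.99 and 6.17 in v-Src, 6.19 and 6.37 in STAT3-C, and 5.79 and 6.11 in control arrays. The mean of 4 epithelial markers lay between 6.53 and 6.63 in v-Src, 6.37 and 6.66 in STAT3-C, and 6.47 and 6.64 in control arrays, and that of 4 endothelial markers between 5.35 and 5.46 in v-Src, 5.40 and 5.54 in STAT3-C, and 5.17 and 5.36 in control arrays. Of these, Epcam was higher in v-Src than STAT3-C cells (0.66), at a probeset with the suffix x, which marks probes able to bind other transcripts. The other probeset of Epcam was below the array medians (5.47, 5.86 and 5.92) and had the opposite sign, -0.39, without passing. The part of these marker differences in the results below was not tested.

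Of the 15 genes lower in v-Src than control cells, 11 were genes of DNA replication, among them 5 subunits of the MCM helicase. The genes higher in STAT3-C cells came from the G1 and S phase, CDK inhibitor, pocket protein, replication and mitosis groups. Each transfected line was compared with control cells, and v-Src with STAT3-C cells, by limma on the 6 arrays concerned. A gene passed with a Benjamini-Hochberg adjusted p under 0.05 over all probesets and a fold of at least 1.5, and "higher" and "lower" are used of genes that passed. Against control cells 4 of 57 genes were higher with v-Src (7.02%, beside 9.54% of all genes) and 15 lower (26.3%, beside 10.4%). With STAT3-C 11 were higher (19.3%, beside 11.9%) and 7 lower (12.3%, beside 10.3%). In v-Src against STAT3-C cells 13 were lower (22.8%, beside 6.83%) and 0 higher (beside 4.84%). At an unadjusted p under 0.05, limma gave 4 higher in that comparison, and SAM, the test of the study's methods, gave 0. Single arrays moved these counts: the 15 lower genes with v-Src became 9 without control 3, and the 13 between the transfected lines became 5 without STAT3-C 1, 6 without v-Src 1, 8 without STAT3-C 3 and 25 without v-Src 5.

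The median log2 difference over the 57 genes was -0.20 for v-Src and 0.13 for STAT3-C against control, and -0.26 for v-Src against STAT3-C, beside 0.02, 0.04 and -0.03 over all genes. Over single probesets, 8 of 131 were higher with v-Src (6.11%, beside 8.75% of all probesets) and 27 lower (20.6%, beside 8.10%). With STAT3-C 22 were higher (16.8%, beside 9.68%) and 15 lower (11.5%, beside 8.58%). In v-Src against STAT3-C 2 were higher (1.53%, beside 4.99%) and 19 lower (14.5%, beside 5.33%). The comparisons with control cells share the control arrays, so their values stand side by side and are not independent of each other. A total of 27 genes passed in none of the comparisons. The map of all 57 genes on the 9 arrays shows the replication rows low in v-Src cells and the mitosis rows changing from array to array.

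**Figure D1:**
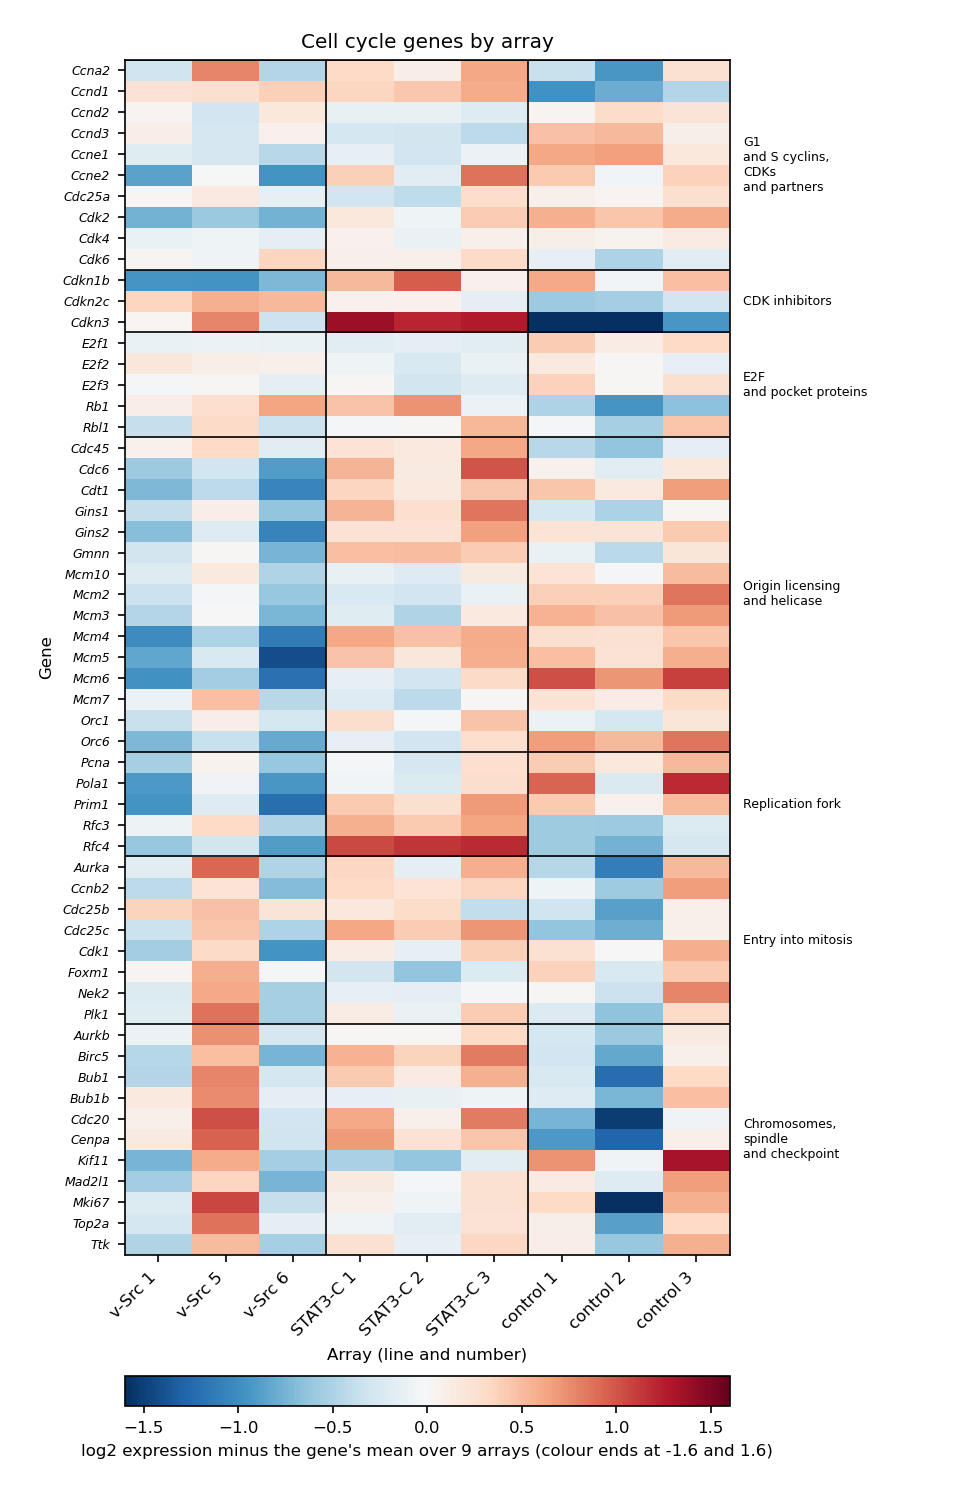
Log2 expression of the 57 genes (rows, by role) on the 9 arrays (columns, by line), as the level minus the gene's mean over the 9 arrays, with colours ending at -1.6 and 1.6. Among replication genes the median array value is -0.56, -0.03 and -0.78 on v-Src 1, 5 and 6, below every STAT3-C and control array.

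**Figure D2:**
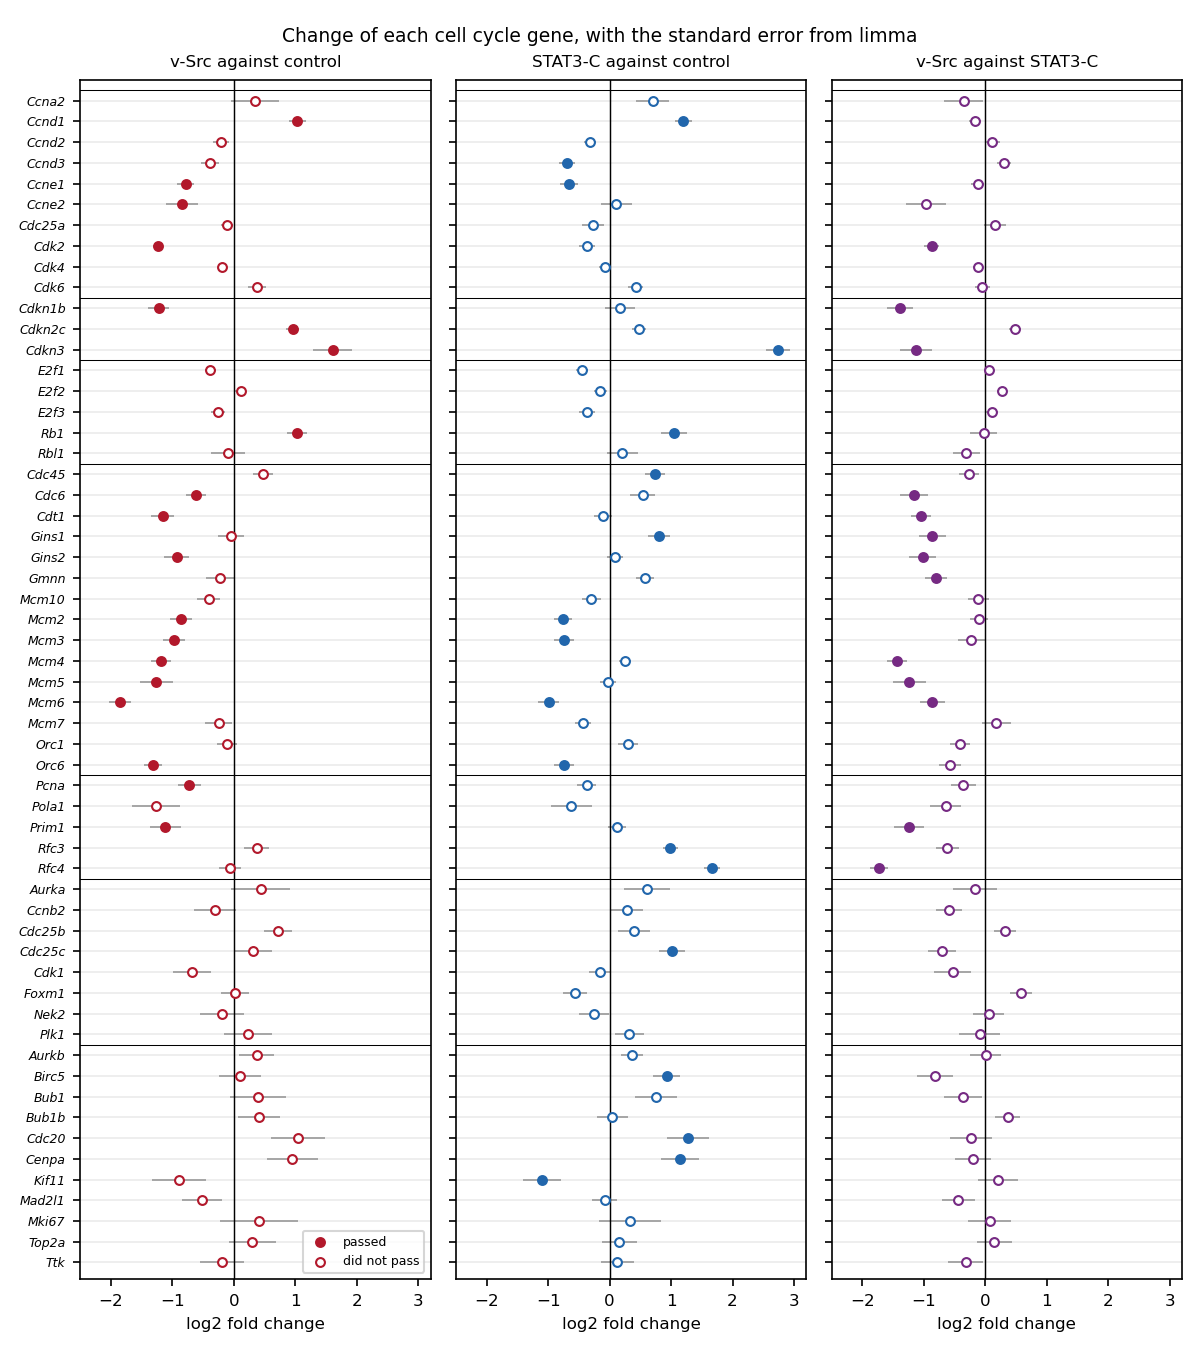
Log2 fold change (x axis) of each of the 57 genes (rows, by role) in 3 comparisons (v-Src with control, STAT3-C with control, v-Src with STAT3-C cells), with the standard error from limma as a bar and filled points for genes that passed. Filled points number 4 higher and 15 lower, 11 higher and 7 lower, and 0 higher and 13 lower.

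The promoters of replication and mitosis genes are shown because these groups are transcribed at different times in the cycle. RefSeq promoters (build GRCm38.p6) of 300 bases, 250 before and 50 after the start site, were matched for 45 of the 57 genes, with 16 replication and 16 mitosis genes among them. They were searched on both strands for E2F-type sites (TTTCCCGC, TTTCGCGC, TTTGCCGC or TTTGGCGC), the CHR (TTTGAA or TTCGAA) and the CCAAT box (CCAAT), and overlapping matches were counted separately. An E2F-type site stood in 9 of the 16 replication genes (56.2%) and 1 of the 16 mitosis genes (6.25%), beside 2.6% of all 27025 genes of the table. A CHR stood in 4 replication genes (25%) and 13 mitosis genes (81.2%), beside 21.7% of all genes. A CCAAT box stood in 13 replication (81.2%) and 14 mitosis genes (87.5%), beside 41.1%. A match describes letters in a window and is no proof of a bound site. The promoters below are examples that hold such matches, with each match in capitals, on the strand of the gene. The promoters of Rfc4, Birc5 and Mad2l1, which are not shown, had no match of any kind. Mcm6 (chr1:128359656-128359955, minus strand) and Mcm5 (chr8:75109259-75109558, plus strand) encode helicase subunits that were lower in v-Src cells, and Rfc3 (chr5:151651159-151651458, minus strand) is a fork gene that was higher in STAT3-C cells. Cdc20 (chr4:118437294-118437593, minus strand) and Mki67 (chr7:135716330-135716629, minus strand) are mitosis genes, Cdc20 higher in STAT3-C cells and Mki67 passing nowhere.
Mcm6: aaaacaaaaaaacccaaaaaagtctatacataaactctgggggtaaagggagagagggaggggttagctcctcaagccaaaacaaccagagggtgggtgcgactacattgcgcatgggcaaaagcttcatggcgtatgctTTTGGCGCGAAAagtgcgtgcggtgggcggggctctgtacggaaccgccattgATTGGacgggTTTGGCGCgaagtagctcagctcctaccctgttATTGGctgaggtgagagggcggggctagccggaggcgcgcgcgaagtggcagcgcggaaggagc
Mcm5: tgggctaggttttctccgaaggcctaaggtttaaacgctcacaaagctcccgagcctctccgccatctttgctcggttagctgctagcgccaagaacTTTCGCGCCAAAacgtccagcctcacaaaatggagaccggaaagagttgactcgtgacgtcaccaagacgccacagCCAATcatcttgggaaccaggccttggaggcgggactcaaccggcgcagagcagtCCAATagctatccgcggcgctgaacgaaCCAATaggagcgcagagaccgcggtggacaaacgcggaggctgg
Rfc3: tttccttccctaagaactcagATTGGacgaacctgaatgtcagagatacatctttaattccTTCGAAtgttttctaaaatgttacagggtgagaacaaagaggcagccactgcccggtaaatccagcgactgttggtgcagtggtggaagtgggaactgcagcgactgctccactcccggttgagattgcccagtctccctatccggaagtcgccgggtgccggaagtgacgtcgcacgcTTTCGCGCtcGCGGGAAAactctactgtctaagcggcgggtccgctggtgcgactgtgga
Cdc20: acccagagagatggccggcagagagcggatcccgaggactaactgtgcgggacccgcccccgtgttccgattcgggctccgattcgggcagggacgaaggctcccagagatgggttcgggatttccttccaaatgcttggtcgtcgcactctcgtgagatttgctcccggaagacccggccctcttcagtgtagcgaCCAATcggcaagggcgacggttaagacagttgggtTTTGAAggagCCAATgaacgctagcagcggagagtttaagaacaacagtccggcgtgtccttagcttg
Mki67: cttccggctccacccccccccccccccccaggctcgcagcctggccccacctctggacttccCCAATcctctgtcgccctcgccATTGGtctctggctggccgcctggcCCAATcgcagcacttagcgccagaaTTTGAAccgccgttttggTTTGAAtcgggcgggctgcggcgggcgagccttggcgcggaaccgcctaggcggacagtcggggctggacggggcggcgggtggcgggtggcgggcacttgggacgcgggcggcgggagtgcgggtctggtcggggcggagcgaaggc
In Mcm6 the first run of capitals holds overlapping E2F-type sites whose first bases lie at -110 and -106 from the start site, and another lies at -47, with CCAAT boxes at -57 and -14. In Mcm5 the overlapping sites lie at -153 and -149, with CCAAT boxes at -77, -22 and 7. In Rfc3 the E2F-type sites lie at -10 and 1, at the start itself, with a CHR at -189 and a CCAAT box at -229. Cdc20 has a CHR at -18 between CCAAT boxes at -53 and -8, and Mki67 has CHR at -116 and -98 with CCAAT boxes at -188, -166 and -141, and neither has an E2F-type site of these letters.

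The group of G1 and S phase holds 10 cyclins, CDKs and partners. Against control cells, v-Src cells had 1 higher (10%, beside 9.54% of all genes) and 3 lower (30%, beside 10.4%). STAT3-C cells had 1 higher (10%, beside 11.9%) and 2 lower (20%, beside 10.3%). The share of higher genes was thus near that of all genes in each line. Ccnd1, which encodes cyclin D1, was 12.40, 12.43 and 12.56 in v-Src and 12.52, 12.60 and 12.77 in STAT3-C, against 11.20, 11.38 and 11.71 in control cells. Neither transfected line overlapped the control cells, and the transfected lines overlapped each other. The differences were 1.03 (standard error 0.13, adjusted p = 0.0013) with v-Src and 1.20 (standard error 0.14, adjusted p = 0.000456) with STAT3-C. Its other probesets gave 2.22 and 1.44 for v-Src and 1.79 and 1.41 with STAT3-C, all past the test.

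Ccne1, which encodes cyclin E1, was 8.93, 8.85 and 8.67 in v-Src and 8.99, 8.81 and 9.02 in STAT3-C, against 9.73, 9.78 and 9.29 in control cells. All transfected arrays lay below all control arrays, at -0.79 (standard error 0.14, adjusted p = 0.00626) and -0.66 (standard error 0.14, adjusted p = 0.00956). The difference with STAT3-C no longer passed without control 2 (-0.57, adjusted p = 0.0321), where the fold was under 1.5. Its other probeset gave -1.15 and -0.77, both past the test. Ccne2, which encodes cyclin E2, was 6.65, 7.51 and 6.54 in v-Src and 7.89, 7.32 and 8.38 in STAT3-C, against 7.92, 7.47 and 7.87 in control cells. The v-Src and control arrays overlapped, and the difference of -0.85 (adjusted p = 0.0475) was lost without v-Src 1 (-0.73, adjusted p = 0.155), v-Src 6 (-0.67, adjusted p = 0.142), control 1 (-0.77, adjusted p = 0.141), control 2 (-0.99, adjusted p = 0.0527) or control 3 (-0.79, adjusted p = 0.139). Against STAT3-C the difference was -0.96 (adjusted p = 0.0779), which passed without v-Src 5 (-1.27) or STAT3-C 2 (-1.23).

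Cdk2, the kinase that cyclins E and A bind, was 8.68, 8.83 and 8.67 in v-Src and 9.60, 9.36 and 9.83 in STAT3-C, against 10.00, 9.87 and 10.02 in control cells. Every v-Src array lay below the rest, with a difference of -1.24 (standard error 0.08, adjusted p = 8.32e-05) against control and -0.87 (standard error 0.13, adjusted p = 0.0038) against STAT3-C cells, and both passed with any 1 array left out. Its other probeset (3.23, 3.37 and 3.33) was below the lower quartile of the arrays and did not pass. Ccnd3, which encodes cyclin D3, was 9.89, 9.50 and 9.85 in v-Src and 9.49, 9.48 and 9.36 in STAT3-C, against 10.25, 10.29 and 9.87 in control cells. It was lower with STAT3-C at -0.69 (adjusted p = 0.00425), and the difference with v-Src was -0.39 (adjusted p = 0.0966). A dim probeset of Ccnd3 (5.17, 4.91 and 4.45) was higher with v-Src by 0.72, and with STAT3-C it and another probeset gave 0.46 and -0.03, without passing.

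The other genes of this group did not pass at the probesets that stand for them. Averages in v-Src, STAT3-C and control cells (± SD, n = 3 each) were 12.04 ± 0.04, 12.16 ± 0.10 and 12.24 ± 0.04 for Cdk4 and 9.56 ± 0.21, 9.60 ± 0.13 and 9.18 ± 0.20 for Cdk6, the kinases of cyclin D. Cdk6 had an adjusted p of 0.0367 with STAT3-C, at a fold of 1.34. They were 8.09 ± 0.14, 7.93 ± 0.37 and 8.21 ± 0.11 for Cdc25a, a phosphatase that activates CDK2, and 10.79 ± 0.68, 11.14 ± 0.26 and 10.44 ± 0.59 for Ccna2, which encodes cyclin A2. Ccnd2, which encodes cyclin D2, averaged 11.11 ± 0.24, 10.99 ± 0.05 and 11.32 ± 0.13, but its dimmer probesets moved in opposite directions. At one (5.04, 5.59 and 6.48) the differences were -1.43 and -0.89, and at another (7.42, 7.55 and 6.28) they were 1.14 and 1.27, all past the test.

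**Figure D3:**
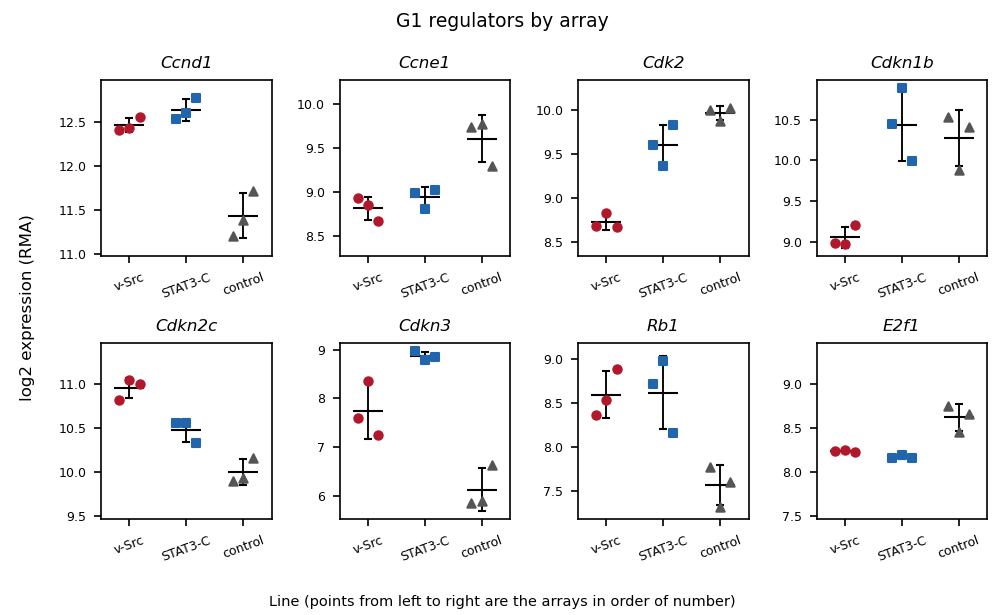
Log2 expression (y axis) of 8 genes on each array of v-Src, STAT3-C and control cells, with the mean and the SD over 3 arrays as bars. The genes are cyclins, a CDK, the CDK inhibitors of the list, and E2F and pocket protein genes. Cdk2 and Cdkn1b are lowest on the v-Src arrays, and Ccnd1, Cdkn3 and Rb1 lowest on the control arrays.

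The inhibitors of the list went separate ways. Cdkn1b, which encodes p27, an inhibitor of CDK2 complexes, was 8.98, 8.97 and 9.20 in v-Src and 10.45, 10.89 and 9.99 in STAT3-C, against 10.53, 9.88 and 10.41 in control cells. It was lowest on every v-Src array, with a difference of -1.22 (standard error 0.17, adjusted p = 0.00201) against control and -1.39 (standard error 0.21, adjusted p = 0.00446) against STAT3-C cells, and both passed with any 1 array left out. A dim probeset of Cdkn1b (5.92, 5.62 and 5.60) gave 0.32 and 0.30, without passing. Cdkn2c, which encodes p18, an inhibitor of CDK4 and CDK6, was 10.82, 11.04 and 11.00 in v-Src and 10.55, 10.55 and 10.32 in STAT3-C, against 9.90, 9.93 and 10.16 in control cells. The lines did not overlap. It was higher with v-Src at 0.96 (standard error 0.10, adjusted p = 0.000601), and the difference with STAT3-C, 0.48 (adjusted p = 0.0141), was below the fold threshold.

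Cdkn3, which encodes a phosphatase that acts on CDKs, had the largest log2 fold change of the 57 genes. It was 7.61, 8.36 and 7.25 in v-Src and 8.97, 8.79 and 8.84 in STAT3-C, against 5.86, 5.89 and 6.64 in control cells. The lines did not overlap, with STAT3-C highest. The differences from control were 1.61 (standard error 0.32, adjusted p = 0.00865) with v-Src and 2.74 (standard error 0.20, adjusted p = 4.52e-05) with STAT3-C. Between the transfected lines it was -1.13 (adjusted p = 0.0199), a call lost without v-Src 1 (-1.06, adjusted p = 0.0747), STAT3-C 1 (-1.08, adjusted p = 0.0847), STAT3-C 2 (-1.16, adjusted p = 0.0554) or STAT3-C 3 (-1.14, adjusted p = 0.0539). Cdkn3 has 1 probeset.

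Of the 5 E2F and pocket protein genes, Rb1 alone passed at the probesets that stand for them. Rb1, which encodes the retinoblastoma protein, was 8.37, 8.53 and 8.89 in v-Src and 8.71, 8.98 and 8.17 in STAT3-C, against 7.77, 7.32 and 7.61 in control cells. The transfected lines overlapped each other and lay above control cells, with a difference of 1.03 (adjusted p = 0.0035) with v-Src and 1.05 (adjusted p = 0.00626) with STAT3-C. E2f1, an activator of replication genes, was 8.23, 8.24 and 8.23 in v-Src and 8.16, 8.19 and 8.15 in STAT3-C, against 8.74, 8.45 and 8.65 in control cells. The lines did not overlap, and the differences from control, -0.38 (adjusted p = 0.019) with v-Src and -0.45 (adjusted p = 0.0112) with STAT3-C, were below the fold threshold. Averages in v-Src, STAT3-C and control cells were 5.97, 5.70 and 5.86 for E2f2, 8.23, 8.12 and 8.49 for E2f3 and 8.40, 8.71 and 8.50 for Rbl1, which encodes the pocket protein p107. At a dimmer probeset of Rbl1, v-Src cells had 4.92, 5.17 and 4.55 against 6.50, 6.56 and 6.67 in STAT3-C cells, -1.70 (adjusted p = 0.000737).

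The replication genes made up most of the genes that were lower in v-Src cells. Of 20, 11 were lower than in control cells (55%, beside 10.4% of all genes) and 0 higher (beside 9.54%), with a median of -0.79. At an unadjusted p under 0.05 limma gave 1 gene higher, and SAM gave 0. In STAT3-C cells 4 were higher (20%, beside 11.9%) and 4 lower (20%, beside 10.3%), with a median of 0.03. In v-Src against STAT3-C cells 10 were lower (50%, beside 6.83%), with a median of -0.72. There 0 were higher, beside 4.84% of all genes (0 at an unadjusted p under 0.05 by limma and 0 by SAM). Against control the count of 11 became 7 without v-Src 1 and 6 without control 3. Against STAT3-C the count of 10 became 4 without v-Src 1, 3 without STAT3-C 1 and 6 without STAT3-C 3, with a range of 3 to 13.

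Of the 6 subunits of the MCM2 to MCM7 helicase, 5 were lower in v-Src cells (83.3%, beside 10.4% of all genes). In STAT3-C cells 3 were lower (50%, beside 10.3%), and in v-Src against STAT3-C cells 3 (50%, beside 6.83%). The medians were -1.08, -0.59 and -0.54. Mcm6 had the lowest log2 fold change of the 57 genes. It was 9.38, 9.79 and 9.15 in v-Src and 10.21, 10.04 and 10.65 in STAT3-C, against 11.38, 11.06 and 11.44 in control cells. The lines did not overlap, with v-Src lowest and STAT3-C between. The difference was -1.85 (standard error 0.18, adjusted p = 0.000371) with v-Src and -0.99 (standard error 0.17, adjusted p = 0.00327) with STAT3-C against control. For v-Src against STAT3-C it was -0.86 (standard error 0.20, adjusted p = 0.0239), a call lost without v-Src 1 (-0.83, adjusted p = 0.0825), v-Src 6 (-0.72, adjusted p = 0.0796), STAT3-C 1 (-0.90, adjusted p = 0.0751) or STAT3-C 3 (-0.69, adjusted p = 0.0565). Another probeset of Mcm6, with the suffix x that marks probes able to bind other transcripts, gave -2.20, -0.46 and -1.74, the first and the last past the test. Another such probeset passed nowhere (-0.45, -0.35 and -0.10).

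Mcm2 was lower in both transfected lines, and so was Mcm3 at its brightest probeset. Mcm2 was 9.90, 10.23 and 9.65 in v-Src and 10.00, 9.94 and 10.15 in STAT3-C, against 10.64, 10.63 and 11.10 in control cells, at -0.86 (standard error 0.18, adjusted p = 0.0122) and -0.76 (standard error 0.14, adjusted p = 0.00494). Between the transfected lines, which overlapped, it differed by -0.10 (standard error 0.15). Mcm3 was 9.87, 10.33 and 9.60 in v-Src and 10.13, 9.85 and 10.49 in STAT3-C, against 10.89, 10.80 and 11.01 in control cells, at -0.97 (adjusted p = 0.00636) and -0.74 (adjusted p = 0.00915). Of the 4 other probesets of Mcm3, 2 were lower with v-Src (-0.73 and -0.84) and the others gave 0.09 and 0.23. With STAT3-C none of these 4 passed (-0.19, -0.36, 0.11 and 0.17), so that call rests on 1 of 5 probesets. Mcm7 averaged 11.61 ± 0.47, 11.42 ± 0.22 and 11.85 ± 0.10 and did not pass, while another probeset gave -0.65 (adjusted p = 0.0433) for v-Src against STAT3-C.

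Mcm4 and Mcm5 were lower in v-Src cells than in both other lines. Mcm4 was 9.17, 9.68 and 9.06 in v-Src and 10.81, 10.66 and 10.78 in STAT3-C, against 10.44, 10.42 and 10.63 in control cells. No v-Src array reached the other lines, with differences of -1.19 (adjusted p = 0.00183) against control and -1.44 (adjusted p = 0.00146) against STAT3-C cells. Mcm5 was 9.85, 10.44 and 9.27 in v-Src and 11.14, 10.87 and 11.26 in STAT3-C, against 11.17, 10.92 and 11.26 in control cells. It differed by -1.26 (adjusted p = 0.0125) from control, a call lost without control 3 (-1.19, adjusted p = 0.0536), and by -1.24 (adjusted p = 0.0183) from STAT3-C, a call lost without v-Src 1 (-1.24, adjusted p = 0.0629), STAT3-C 1 (-1.21, adjusted p = 0.0777) or STAT3-C 3 (-1.15, adjusted p = 0.0592). Both probesets carry the suffix x. At the other probesets v-Src was also lower than control, with -0.92 for Mcm4 and -1.29 and -0.97 for Mcm5, but the differences from STAT3-C, -0.47 for Mcm4 and -0.53 and -0.05 for Mcm5, did not pass. Those probesets of Mcm5 were lower with STAT3-C than control, at -0.77 and -0.92.

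**Figure D4:**
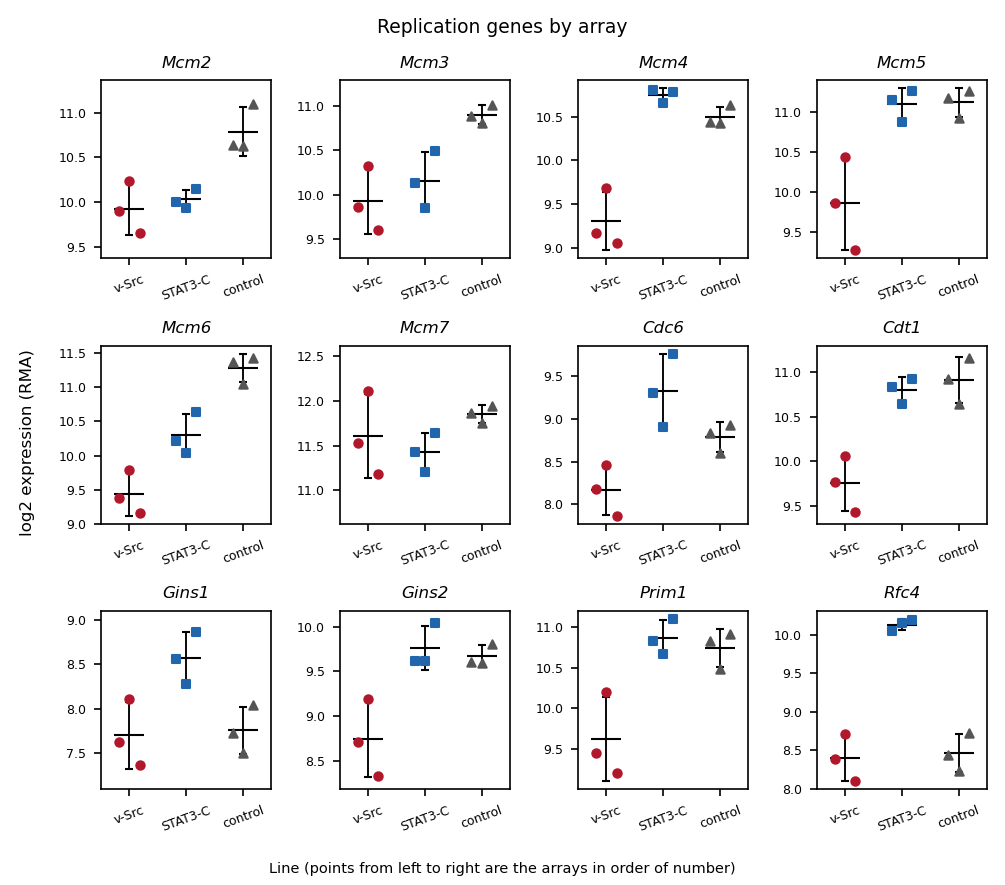
Log2 expression (y axis) of 12 replication genes on each array of v-Src, STAT3-C and control cells, with the mean and the SD over 3 arrays as bars. The v-Src points of Mcm4, Mcm5, Cdt1, Gins2 and Prim1 lie below both other lines, and Rfc4 and Gins1 are highest in STAT3-C cells.

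Of the loading factors, Orc6, Cdt1 and Cdc6 were lower with v-Src. Orc6, a subunit of the origin recognition complex, was 8.10, 8.47 and 8.02 in v-Src and 8.70, 8.52 and 9.10 in STAT3-C, against 9.50, 9.34 and 9.69 in control cells. Both transfected lines lay below control, with a difference of -1.31 (adjusted p = 0.000645) with v-Src and -0.74 (adjusted p = 0.00981) with STAT3-C. Orc1 averaged 7.86, 8.28 and 7.98 in v-Src, STAT3-C and control cells and did not pass. Cdt1, which loads the helicase, was 9.77, 10.06 and 9.43 in v-Src and 10.83, 10.64 and 10.93 in STAT3-C, against 10.93, 10.65 and 11.16 in control cells. Levels were lowest on all v-Src arrays, with a difference of -1.16 (adjusted p = 0.0036) against control and -1.04 (adjusted p = 0.00493) against STAT3-C cells. Another bright probeset of Cdt1 gave -0.78, which passed, and -0.36, which did not, and yet another gave -0.26 and 0.14, without passing.

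Cdc6, which loads the helicase with CDT1, was 8.18, 8.46 and 7.86 in v-Src and 9.31, 8.91 and 9.77 in STAT3-C, against 8.83, 8.60 and 8.93 in control cells. STAT3-C cells were at the top and v-Src cells at the bottom. The difference of -0.62 (adjusted p = 0.0267) against control was lost without v-Src 1 (-0.63, adjusted p = 0.0805), v-Src 6 (-0.47, adjusted p = 0.0658), control 1 (-0.60, adjusted p = 0.0842) or control 3 (-0.55, adjusted p = 0.0903). That of -1.16 (adjusted p = 0.0128) against STAT3-C was lost without STAT3-C 1 (-1.17, adjusted p = 0.0566). The difference of STAT3-C from control, 0.54 (adjusted p = 0.084), passed without STAT3-C 2 (0.75). Gmnn, which encodes geminin, the inhibitor of CDT1, was 8.95, 9.27 and 8.51 in v-Src and 9.73, 9.75 and 9.65 in STAT3-C, against 9.15, 8.82 and 9.44 in control cells. On all arrays it passed only between the transfected lines, at -0.80 (adjusted p = 0.0188), and not without v-Src 1 (-0.82, adjusted p = 0.0592), STAT3-C 1 (-0.79, adjusted p = 0.0757) or STAT3-C 2 (-0.78, adjusted p = 0.0602).

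The genes that switch the helicase on were split. Gins2 was 8.71, 9.19 and 8.33 in v-Src and 9.62, 9.62 and 10.04 in STAT3-C, against 9.61, 9.60 and 9.81 in control cells. The v-Src arrays lay below all others, with a difference of -0.93 (adjusted p = 0.0134) against control, a call lost without v-Src 1 (-0.91, adjusted p = 0.0517) or control 3 (-0.86, adjusted p = 0.0554), and by -1.02 (adjusted p = 0.0176) against STAT3-C, a call lost without v-Src 1 (-1.002, adjusted p = 0.0635), STAT3-C 1 (-1.09, adjusted p = 0.0565) or STAT3-C 3 (-0.88, adjusted p = 0.0529). Its other probeset passed in both, at -0.81 and -1.30. Gins1, a subunit of the same complex, was 7.63, 8.11 and 7.37 in v-Src and 8.56, 8.27 and 8.86 in STAT3-C, against 7.73, 7.51 and 8.04 in control cells. Here STAT3-C cells stood above both other lines, with a difference of 0.81 (adjusted p = 0.011) over control. For v-Src against STAT3-C the difference was -0.86 (adjusted p = 0.0291), a call lost without v-Src 1 (-0.82, adjusted p = 0.0969), v-Src 6 (-0.69, adjusted p = 0.09), STAT3-C 1 (-0.86, adjusted p = 0.0976) or STAT3-C 3 (-0.71, adjusted p = 0.0796). A dim probeset of Gins1 (4.10, 4.66 and 4.35) gave 0.32 with STAT3-C and -0.56 between the transfected lines, without passing. Cdc45 was 8.61, 8.85 and 8.36 in v-Src and 8.75, 8.69 and 9.16 in STAT3-C, against 8.10, 7.91 and 8.39 in control cells. It was higher with STAT3-C at 0.74 (adjusted p = 0.0106), and the difference with v-Src was 0.47 (adjusted p = 0.0692), which passed without v-Src 6 (0.60) or control 3 (0.60). The other probeset of Cdc45 gave -0.16 with v-Src and 0.16 with STAT3-C, without passing. Mcm10, which helps to start replication, averaged 8.45, 8.56 and 8.86 and did not pass.

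At the fork, Prim1, which encodes the small subunit of primase, was 9.46, 10.20 and 9.21 in v-Src and 10.82, 10.67 and 11.10 in STAT3-C, against 10.83, 10.48 and 10.91 in control cells. The v-Src arrays lay below all others. The difference of -1.12 (adjusted p = 0.0155) against control was lost without v-Src 1 (-1.03, adjusted p = 0.0634), control 1 (-1.07, adjusted p = 0.0585) or control 3 (-1.03, adjusted p = 0.0633). That of -1.24 (adjusted p = 0.013) against STAT3-C was lost without v-Src 1 (-1.16, adjusted p = 0.0542) or STAT3-C 1 (-1.26, adjusted p = 0.0563). Another probeset of Prim1 gave -1.10 and -1.80 and was higher with STAT3-C than control by 0.69, all past the test. Pcna, the sliding clamp, was 11.80, 12.39 and 11.72 in v-Src and 12.31, 12.07 and 12.60 in STAT3-C, against 12.73, 12.50 and 12.85 in control cells. It was lower with v-Src at -0.73 (adjusted p = 0.0259), a call lost without v-Src 1 (-0.64, adjusted p = 0.096), v-Src 6 (-0.60, adjusted p = 0.0861), control 1 (-0.71, adjusted p = 0.0815) or control 3 (-0.65, adjusted p = 0.0906). Pola1, the catalytic subunit of DNA polymerase alpha, was 7.73, 8.60 and 7.71 in v-Src and 8.61, 8.43 and 8.93 in STAT3-C, against 9.58, 8.42 and 9.84 in control cells. Control 2 lay within the v-Src range, and the difference of -1.27 (adjusted p = 0.0522) passed without control 2 (-1.70) or without v-Src 5 (-1.56).

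Of the clamp loader, Rfc3 and Rfc4 are on the list, and both were higher in STAT3-C than control cells. Rfc4 was 8.39, 8.71 and 8.11 in v-Src and 10.05, 10.15 and 10.19 in STAT3-C, against 8.44, 8.24 and 8.73 in control cells. The v-Src and control arrays overlapped (-0.07, standard error 0.18), and STAT3-C lay above both. The difference was 1.66 (standard error 0.13, adjusted p = 6.67e-05) for STAT3-C against control and -1.73 (standard error 0.15, adjusted p = 0.000637) for v-Src against STAT3-C, past the test with any 1 array left out, and at another probeset (1.75 and -1.89). Rfc3 was 8.99, 9.39 and 8.60 in v-Src and 9.65, 9.49 and 9.70 in STAT3-C, against 8.51, 8.50 and 8.87 in control cells. It was higher with STAT3-C at 0.99 (adjusted p = 0.000662), while v-Src differed by 0.37 (adjusted p = 0.225) from control and -0.62 (adjusted p = 0.0553) from STAT3-C cells.

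Of the 19 mitosis genes, 4 were higher (21.1%, beside 11.9% of all genes) and 1 lower (5.26%, beside 10.3%) in STAT3-C than control cells, with a median of 0.32. With v-Src 0 passed by limma in either direction against control, beside 9.54% of all genes higher and 10.4% lower. At an unadjusted p under 0.05 limma gave 2 higher and 0 lower, and SAM gave 3 higher, Cdc20, Cdc25b and Cenpa. In v-Src against STAT3-C cells 0 passed by limma, beside 4.84% of all genes higher and 6.83% lower. There limma gave 1 higher and 3 lower at an unadjusted p under 0.05, and SAM gave 3 lower, Birc5, Ccnb2 and Cdc25c. The medians were 0.30 and -0.17. The median standard errors were 0.36 and 0.29, beside 0.10 and 0.10 over all genes, so a difference had to be larger to pass in these genes. The count of 4 with STAT3-C became 1 without STAT3-C 1 or STAT3-C 3, 2 without control 1 and 7 without control 3.

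Cdc20, the activator of the anaphase-promoting complex, was 10.88, 11.83 and 10.49 in v-Src and 11.41, 10.88 and 11.63 in STAT3-C, against 10.06, 9.29 and 10.75 in control cells. The STAT3-C arrays lay above all control arrays, at 1.27 (adjusted p = 0.0255), but this call was lost without STAT3-C 1 (1.22, adjusted p = 0.0941), STAT3-C 3 (1.11, adjusted p = 0.0913) or control 1 (1.29, adjusted p = 0.0715). Its other probesets gave 1.22 and 1.28, both past the test. Cenpa, the histone of centromeres, was 10.38, 11.18 and 9.91 in v-Src and 10.91, 10.47 and 10.68 in STAT3-C, against 9.32, 8.97 and 10.32 in control cells. Its difference with STAT3-C, 1.15 (adjusted p = 0.0241), was lost without STAT3-C 1 (1.04, adjusted p = 0.0989), STAT3-C 3 (1.16, adjusted p = 0.0688), control 1 (1.04, adjusted p = 0.0868) or control 2 (0.87, adjusted p = 0.0601). Dimmer probesets of Cenpa (5.91, 4.94 and 5.54, and 6.43, 6.35 and 6.55) had the opposite sign with STAT3-C, -0.60 and -0.19, without passing, and the first was higher in v-Src than STAT3-C cells by 0.97.

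Birc5, which encodes survivin, a subunit of the chromosomal passenger complex, was 10.10, 11.03 and 9.81 in v-Src and 11.11, 10.90 and 11.39 in STAT3-C, against 10.25, 9.74 and 10.63 in control cells. The v-Src arrays overlapped both other lines. The difference with STAT3-C, 0.93 (adjusted p = 0.015), was lost without STAT3-C 1 (0.94, adjusted p = 0.0561) or STAT3-C 3 (0.80, adjusted p = 0.0573). Cdc25c, a phosphatase that activates CDK1, was 7.65, 8.44 and 7.51 in v-Src and 8.61, 8.40 and 8.70 in STAT3-C, against 7.36, 7.22 and 8.08 in control cells. It was higher with STAT3-C at 1.02 (adjusted p = 0.00819), also with any 1 array left out, and at its other probeset (1.25). Kif11, a motor that separates the spindle poles, was 7.38, 8.71 and 7.58 in v-Src and 7.60, 7.50 and 7.94 in STAT3-C, against 8.84, 8.07 and 9.44 in control cells. It was the 1 mitosis gene lower with STAT3-C, at -1.10 (adjusted p = 0.0278), a call lost without STAT3-C 1 (-1.06, adjusted p = 0.0987), STAT3-C 2 (-1.01, adjusted p = 0.0908), control 1 (-1.07, adjusted p = 0.0849) or control 3 (-0.77, adjusted p = 0.0644). Another probeset of Kif11 gave -1.35 (adjusted p = 0.00462), and yet another -0.54, without passing.

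Other mitosis genes came near the threshold. Foxm1, a transcription factor of mitosis genes, was 8.96, 9.50 and 8.88 in v-Src and 8.61, 8.28 and 8.70 in STAT3-C, against 9.28, 8.66 and 9.32 in control cells. Its difference with STAT3-C was -0.56 (adjusted p = 0.0614), which passed without control 2 (-0.77), and 2 other probesets of Foxm1 were lower, by -0.75 and -0.78. At the last of these v-Src was above STAT3-C by 0.69 (adjusted p = 0.0472). Cdc25b, a phosphatase that starts mitosis, was 9.28, 9.40 and 9.14 in v-Src and 9.10, 9.22 and 8.54 in STAT3-C, against 8.61, 8.06 and 9.01 in control cells. The v-Src arrays lay above all control arrays, but 0.71 (adjusted p = 0.0519) did not pass, except without control 3 (0.94).

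Mki67, the Ki-67 marker of cycling cells, was 9.88, 11.17 and 9.73 in v-Src and 10.19, 10.03 and 10.35 in STAT3-C, against 10.42, 8.47 and 10.67 in control cells. The lines overlapped, with v-Src 5 at the top and control 2 at the bottom. Cdk1, the kinase of mitosis, was 10.59, 11.45 and 10.18 in v-Src and 11.27, 11.01 and 11.53 in STAT3-C, against 11.39, 11.15 and 11.73 in control cells. It passed only without v-Src 5, at -1.04 against control and -0.88 against STAT3-C cells. The rest did not pass at the probesets that stand for them. Averages in v-Src, STAT3-C and control cells were 8.81, 9.40 and 9.12 for Ccnb2, the cyclin B2 partner of CDK1, and 9.36, 9.45 and 9.13 for Plk1, 9.44, 9.61 and 9.001 for Aurka, 8.87, 8.87 and 8.50 for Aurkb and 8.71, 8.65 and 8.91 for Nek2, all kinases of mitosis. They were 10.99, 10.84 and 10.69 for Top2a, which untangles chromosomes, and 8.96, 9.32 and 8.56 for Bub1, 9.55, 9.19 and 9.14 for Bub1b, 10.03, 10.46 and 10.55 for Mad2l1 and 8.40, 8.72 and 8.59 for Ttk, all of the spindle checkpoint. Another probeset of Aurkb was higher with STAT3-C at 0.72 (adjusted p = 0.0291), and a dim one of Nek2 (4.90, 5.08 and 4.48) at 0.60 (adjusted p = 0.00189).

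Within a line, the arrays differed in the level of these genes. The median SD over the 3 arrays of v-Src, STAT3-C and control cells was 0.63, 0.22 and 0.59 for mitosis genes and 0.35, 0.23 and 0.22 for replication genes, beside 0.10, 0.13 and 0.13 for all genes. Array v-Src 5 was the highest of its line in 19 of 19 mitosis and 20 of 20 replication genes, beside 37.5% of all genes. Array v-Src 6 was the lowest in 16 and 19, beside 40.4% of all genes. Control 3 was highest and control 2 lowest in all 19 and all 20, beside 32.5% and 27.8% of all genes. STAT3-C 3 was highest in 17 mitosis and 18 replication genes, beside 39.3% of all genes, and STAT3-C 2 lowest in 17 and 18, beside 37.9%. In these genes the arrays numbered 3 were thus high and those numbered 2 low in both STAT3-C and control cells.

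The median deviation of the mitosis genes from the mean of their line was -0.21, 0.69 and -0.41 on v-Src 1, 5 and 6, 0.02, -0.18 and 0.18 on STAT3-C 1, 2 and 3, and -0.03, -0.56 and 0.54 on control 1, 2 and 3. Over all genes it was 0.01, 0.01 and -0.02, 0.01, -0.01 and 0.01 and 0.00, 0.02 and -0.01. On the same v-Src arrays the fibroblast markers had a median deviation of 0.04, -0.23 and 0.20, so the array highest in cell cycle genes was lowest in these. The 32 other spindle, kinetochore and cytokinesis genes, which are not on the list, were highest on v-Src 5 in 32. What set the arrays of a line apart was not tested.

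**Figure D5:**
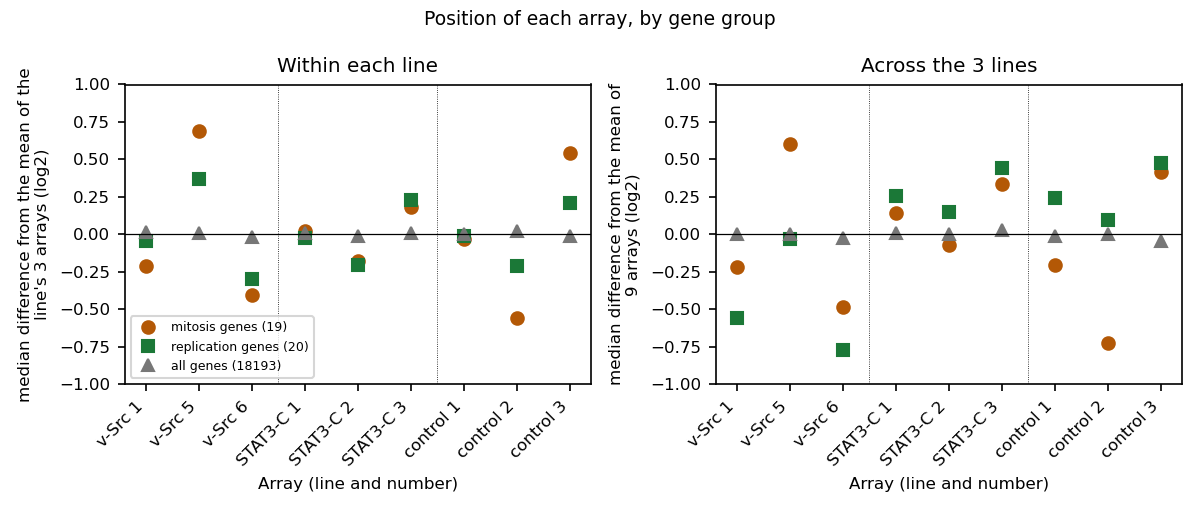
Median over the 19 mitosis genes, the 20 replication genes and all 18193 genes of each array's log2 difference from the mean of its line (left) and from the mean of the 3 lines (right). Within a line v-Src 5 and control 3 are high, and control 2 and v-Src 6 low, in mitosis genes, while all genes stay near 0.

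Set against the mean of all 9 arrays, the median replication gene was at -0.56, -0.03 and -0.78 on v-Src 1, 5 and 6, 0.26, 0.15 and 0.44 on STAT3-C 1, 2 and 3, and 0.25, 0.10 and 0.47 on control 1, 2 and 3. Every v-Src array was below every other array. The median mitosis gene was at -0.22, 0.60 and -0.48, 0.14, -0.07 and 0.33, and -0.20, -0.73 and 0.41, and here the lines overlapped. Without v-Src 5, the count of genes lower in v-Src than STAT3-C cells was 25 in place of 13, and among those added were Birc5 (-1.18), Cdc25c (-0.99), Cdk1 (-0.88), Ccnb2 (-0.85) and Mad2l1 (-0.77). Without control 3, 16 in place of 11 genes were higher in STAT3-C than control cells, with Aurka (1.04), Bub1 (1.11), Ccna2 (1.00), Ccnb2 (0.61) and Gmnn (0.73) added.

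The choice of probeset mattered for some genes. Of the 43 genes with several probesets, some but not all passed in 8 for v-Src, in 14 for STAT3-C and in 11 between the transfected lines. When the probesets of a gene were averaged in place of taking the brightest, Cdkn1b, Mcm3 and Rb1 no longer passed with v-Src, Ccnd3, Cdc45, Cenpa, Gins1 and Mcm3 no longer passed with STAT3-C, and Cdk2, Cdkn1b, Cdt1 and Mcm5 no longer passed between the transfected lines. That mean also takes in probesets at background, such as those of Cdk2 (3.23, 3.37 and 3.33) and Rb1 (3.92, 4.01 and 3.84). It takes in bright ones that did not pass as well. One of Mcm3 (9.50, 9.52 and 9.41) gave 0.09 with v-Src and 0.11 with STAT3-C. One of Cdt1 (9.34, 9.70 and 10.12) gave -0.36 between the transfected lines.

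Genes of the same pathways outside the list were measured the same way. Of 31 other origin and fork genes, v-Src cells had 1 higher and 13 lower and STAT3-C cells 4 higher and 7 lower than control cells, and 9 were lower in v-Src than STAT3-C cells (3.23%, 41.9%, 12.9%, 22.6% and 29%, beside 9.54%, 10.4%, 11.9%, 10.3% and 6.83%), with medians of -0.57, -0.31 and -0.36. With v-Src the largest differences were in Uhrf1, which helps to copy DNA methylation (-1.27), Pole, the leading-strand polymerase (-1.20), Mcm9 (-1.19) and Tk1, a thymidine kinase (-1.12). With STAT3-C they were in Pole2, a subunit of the same polymerase (1.92), Mcm9 (-1.08), Pold2 (1.07) and Dbf4, the activator of CDC7 kinase (0.93). In v-Src against STAT3-C they were in Chaf1b, a chaperone of new histones (-1.46), Pold2 (-0.97), Rpa2, of the single-strand binding protein (-0.94), and Pole2 (-0.88).

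Of 32 other spindle, kinetochore and cytokinesis genes, Anln, a scaffold of cytokinesis, was higher (1.20) and Cenph, a kinetochore protein, lower (-1.22) with v-Src. With STAT3-C 5 were higher (15.6%, beside 11.9%), with the largest differences in Anln (1.21), Ect2 (1.05), Ube2c (1.04) and Kif20a (0.98). In v-Src against STAT3-C cells Cenpf was higher (1.42), and Cenph (-1.23) and Kif22 (-0.72) lower. The medians were 0.02, 0.12 and -0.22.

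Of 33 other cyclins, inhibitors and regulators, v-Src cells had 3 higher and 10 lower and STAT3-C cells 4 higher and 7 lower than control cells, and 2 were higher and 7 lower in v-Src against STAT3-C, with medians of -0.25, -0.12 and -0.20. The higher genes made up 9.09%, 12.1% and 6.06%, beside 9.54%, 11.9% and 4.84% of all genes. The lower genes made up 30.3%, 21.2% and 21.2%, beside 10.4%, 10.3% and 6.83%. Rbl2, which encodes p130, the pocket protein of resting cells, was lower in both transfected lines (-2.17 for v-Src, -1.81 for STAT3-C), as was the growth arrest gene Gas2 (-1.71 and -1.76). Ccng2, a cyclin linked to arrest, was higher (1.81 and 1.73). Cdkn1a, which encodes the CDK inhibitor p21, was higher in both (1.14 and 1.33). Gas1, another growth arrest gene, was lower with v-Src (-1.38), with -0.54 for STAT3-C, which did not pass, while another probeset was lower in both (-3.00 and -2.27). Between the transfected lines Cdk7, of the CDK-activating kinase (-1.08), and Ccng1 (-1.07) were lower in v-Src cells. Cdkn2d (1.02), which encodes an inhibitor of CDK4 and CDK6, and Cdkn2a (0.99) were higher in v-Src cells. Against control, Cdkn2d was higher with v-Src and Cdkn2a lower with STAT3-C.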

How the data were processed

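Gene expression was measured on 9 Affymetrix arrays, 3 each of v-Src, STAT3-C and control cells. The deposited values are log2 expression levels that the authors made with RMA, which corrects background, normalizes quantiles and summarizes probes. Per the study's methods, RMA was run separately for each transfected line together with the control arrays. Which of the runs gave the deposited control values is not given in the sources used here. Up to 1533 probesets had equal values on a v-Src and a STAT3-C array. With control arrays these were up to 1818 for v-Src and 1362 for STAT3-C. Within a line they were up to 1910 (v-Src), 1369 (STAT3-C) and 1578 (control). Whether all 9 arrays were normalized in 1 run, or whether values shifted between runs, was not tested. No counts exist for arrays, and their number limits the precision. The 64 control probesets were left out, and 34945 of 45037 probesets name 1 gene, 932 several and 9160 none. Each pair of lines was fitted with limma 3.58.1 (lmFit and eBayes, R 4.3.3) on its 6 arrays, with p-values adjusted over all probesets, and the fit was tested on simulated data. Genes not on the list are named where they have the largest differences that passed, up to 4 in each comparison. The members and lists were chosen with earlier results of these data known. Alternatives were SAM over 20 groupings of the arrays (q under 5%), all 9 arrays in 1 fit, other normalizations, filters and thresholds, the mean of a gene's probesets, each array left out, and a replicate block.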

Additional observations from a re-analysis of the deposited data

Results flagged for a closer look

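The change from control differed between v-Src and STAT3-C cells, by the limma test of v-Src against STAT3-C, in 13 genes, all lower in v-Src cells. The log2 differences were -1.73 for Rfc4, -1.44 for Mcm4, -1.39 for Cdkn1b, -1.24 for Prim1, -1.24 for Mcm5, -1.16 for Cdc6. They were -1.13 for Cdkn3, -1.04 for Cdt1, -1.02 for Gins2, -0.87 for Cdk2, -0.86 for Gins1, -0.86 for Mcm6 and -0.80 for Gmnn. With any 1 array left out, 5 of these passed in every fit (Cdk2, Cdkn1b, Cdt1, Mcm4, Rfc4) and 8 did not in at least 1. Of those 5, Rfc4 passed at 2 of 2 probesets, Cdk2, Cdkn1b and Mcm4 at 1 of 2, and Cdt1 at 1 of 3. With the probesets of a gene averaged, Cdk2, Cdkn1b, Cdt1 and Mcm5 no longer passed. Lines of 3 arrays were not searched for outlying samples.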

How the results depend on the processing

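Leaving out each array gave 4 to 7 higher and 9 to 17 lower genes in v-Src cells, 8 to 16 higher and 6 to 8 lower in STAT3-C cells, and 5 to 25 lower in v-Src against STAT3-C. A fold of at least 2 left 3 higher and 8 lower in v-Src cells, and 7 and 1 in STAT3-C cells. In v-Src against STAT3-C it left 0 and 9. Over all 45037 probesets it left 1841 and 1669, 1955 and 1758, and 725 and 771. An adjusted p under 0.01 left 4 higher and 8 lower, 6 and 6, and 0 and 5 genes. Over all probesets it left 3243 and 3000, 3753 and 3264, and 1466 and 1725. SAM called 7 higher and 16 lower, 12 and 7, and 0 and 19 genes. Over all probesets it called 4106 and 3833, 4465 and 3990, and 2485 and 2600. Cdkn2c became the 1 gene higher in v-Src than STAT3-C cells with no fold threshold, and quantile normalization run again also gave 1. Single genes were also followed through the alternatives, with 1 value for each gene in each alternative. Direction and side of the threshold were kept in 850 values (v-Src with control), 915 (STAT3-C with control) and 844 (between the transfected lines). In the same order, 39, 35 and 40 values lost the call, 22, 18 and 27 gained it, and no call reversed. The cause was not tested. Over all probesets, calls with v-Src split into 3939 higher and 3647 lower, 3805 and 3829 after quantile normalization again, and 3354 and 4249 after median centring.

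STAT3-C and control arrays share the numbers 1, 2 and 3, but deviations of same-numbered arrays correlated across probesets at -0.09, 0.06 and 0.04, so the numbers were not taken as pairs. With the replicate block, STAT3-C cells had 14 higher and 7 lower genes: all 18 calls were kept and Aurka, Bub1 and Ccna2 were added as higher. In replication and mitosis genes, arrays 3 were high and arrays 2 low in both lines. The v-Src arrays share only the number 1 with the other lines, so no block was fitted there.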
